A study of Mus musculus with 9 samples.

Results

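A set of 10 genes of scar tissue and of the contractile, matrix-making cells called myofibroblasts was followed across mouse corneas: Acta2, Tagln, Postn, Cthrc1, Fn1, Tnc, Ctgf, Cyr61, Tgfbi and Sparc. They were taken by symbol from the deposited count matrix, which holds 34142 gene names once names that read as calendar dates are left out. All 10 of 10 genes were found, and all 10 passed the filter on low counts. Bulk RNA sequencing of the whole cornea gave 4 libraries of Aire KO mice treated with PBS (KO + PBS), 2 libraries of untreated Aire KO mice (KO) and 3 libraries of untreated WT mice. Aire lets the thymus display tissue proteins to developing T cells, its loss stands for dry eye disease in the series design, and PBS is a buffered salt solution given as a topical lubricant. The titles give an age of 5 wk for KO and WT and a time of 24 hr for KO + PBS, whereas the series design speaks of 6 wk of age on day 7 of treatment, and the labels do not settle this. Strain, sex and the deleted part of Aire are not named in the labels, and a Lacripep-treated group named in the design was not analysed here.

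In an injured cornea, keratocytes, the quiet cells of the stroma, can become fibroblasts and then myofibroblasts under transforming growth factor beta (TGF-beta). These cells assemble actin bundles and lay down a provisional matrix that scatters light. SMAD proteins carry the TGF-beta signal to the nucleus, while the coactivators MRTF, acting with SRF, and YAP and TAZ, acting with TEAD factors, carry signals of tension. Vascular smooth muscle, pericytes and the muscles of the iris also use the contractile genes, and quiet keratocytes and the epithelium use several of the matrix genes.

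The labelled tissue was checked against its defining markers. Krt12, a keratin specific to corneal epithelium, had 3750 to 6020 CPM (counts scaled to library size with edgeR's TMM factors) in KO + PBS, 22400 and 38300 CPM in KO, and 27800 to 33200 CPM in WT. Kera, the keratocan gene of keratocytes, was detected in every library. Aire had 7, 9, 7 and 2 counts in KO + PBS, 0 and 3 in KO, and 4, 16 and 3 in WT, too few to check the genotype labels. Library totals ran from 22944576 to 104518572 counts. Untreated and PBS libraries differed in what was counted, since processed pseudogenes took 0.289 to 0.360% of the counts in KO + PBS, 17.6 and 19.0% in KO, and 20.6 to 22.1% in WT. In both comparisons with KO + PBS, treatment and kind of library therefore cannot be told apart.

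RefSeq promoter windows of 300 bases, 250 before to 50 after the transcript start, were found for 6 of the 10 genes: Acta2, Postn, Tnc, Cyr61, Tgfbi and Sparc. Fn1, Tagln, Cthrc1 and Ctgf are named only. The 250 bases before the start of 3 genes are printed 5′ to 3′ on the gene's strand: Acta2 as the contractile gene that 1 library dominated, Cyr61 as the immediate target of YAP and TEAD, and Postn as a matrix gene that fell in KO. Capitals mark matches on either strand to GGAATG, the core of TEAD sites, and to TATAAA, the TATA box. The windows are Acta2 chr19:34255374-34255623 on the minus strand, Cyr61 chr3:145649986-145650235 on the minus strand and Postn chr3:54360857-54361106 on the plus strand, in build GRCm38.p6.
Acta2: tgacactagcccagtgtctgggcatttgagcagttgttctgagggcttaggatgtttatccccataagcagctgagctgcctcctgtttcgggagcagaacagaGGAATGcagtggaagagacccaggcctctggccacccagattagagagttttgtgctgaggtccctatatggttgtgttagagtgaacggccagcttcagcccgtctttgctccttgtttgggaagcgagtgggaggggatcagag
Cyr61: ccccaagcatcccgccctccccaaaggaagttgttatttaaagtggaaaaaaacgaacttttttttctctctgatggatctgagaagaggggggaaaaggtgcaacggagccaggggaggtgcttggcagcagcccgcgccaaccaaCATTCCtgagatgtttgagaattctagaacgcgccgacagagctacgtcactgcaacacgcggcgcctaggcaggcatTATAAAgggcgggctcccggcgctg
Postn: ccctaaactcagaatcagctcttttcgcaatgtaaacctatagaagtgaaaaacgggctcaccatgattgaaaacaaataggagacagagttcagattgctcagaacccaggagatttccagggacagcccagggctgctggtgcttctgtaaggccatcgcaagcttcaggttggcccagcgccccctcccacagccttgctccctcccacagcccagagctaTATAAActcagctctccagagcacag
In Acta2 the TEAD letters begin 146 bases before the RefSeq start used, and in Cyr61 they stand on the opposite strand 103 bases before its start. The annotated Acta2 gene reaches to 34255590, so most of its printed window, with the TEAD letters, lies inside that gene. The TATA letters begin 25 bases before the start in Cyr61 and 26 bases before the printed start in Postn. Postn has another annotated start, whose window (chr3:54359017-54359316) holds 0 matches to the TEAD, TATA or strict CArG letters. Of 32817 windows of the same length over the genome, 14.7% hold GGAATG and 13.6% hold TATAAA, with no overlap between these motifs in the printed windows. The CArG box, the SRF motif, was sought only in its strict form: CC, 6 letters of A or T, then GG. That form is held by 1.63% of windows and by none of those found for the 6 genes. The printed Acta2 window holds ccctatatgg and ccttgtttgg, which differ from it by 1 letter each. Such near matches were not counted, so the search does not show that SRF sites are absent. These matches describe letters and not bound sites.

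Levels between genes were compared as TMM-scaled CPM per kilobase of annotated exon. Sparc, a collagen-binding protein that bone and stroma share, and Tgfbi, an adhesive matrix protein of corneal stroma and epithelium, stood far above the other 8 genes in every group. In KO + PBS the order was Tgfbi (341), Sparc (191), Ctgf (35.7), Acta2 (32.5), Cyr61 (30.6), Fn1 (21.8), Tagln (20.4), Postn (5.34), Cthrc1 (5.09) and Tnc (1.65 CPM per kilobase). Libraries of neighbours in that order overlapped except between Sparc and Ctgf and between Cthrc1 and Tnc. In KO the order was Sparc (491), Tgfbi (478), Ctgf (41.2), Cyr61 (35.4), Acta2 (31.9), Fn1 (9.23), Tagln (7.75), Tnc (6.44), Postn (2.38) and Cthrc1 (1.02 CPM per kilobase). In WT it was Sparc (923), Tgfbi (338), Ctgf (64.5), Cyr61 (53.8), Acta2 (24.0), Fn1 (19.8), Postn (8.32), Tagln (5.92), Cthrc1 (5.84) and Tnc (4.73 CPM per kilobase), and only Tagln and Cthrc1 had overlapping libraries there. The 10 genes together held 0.286 to 0.481% of the counts in KO + PBS, 0.358 and 0.275% in KO, and 0.415 to 0.488% in WT.

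**Figure D1:**
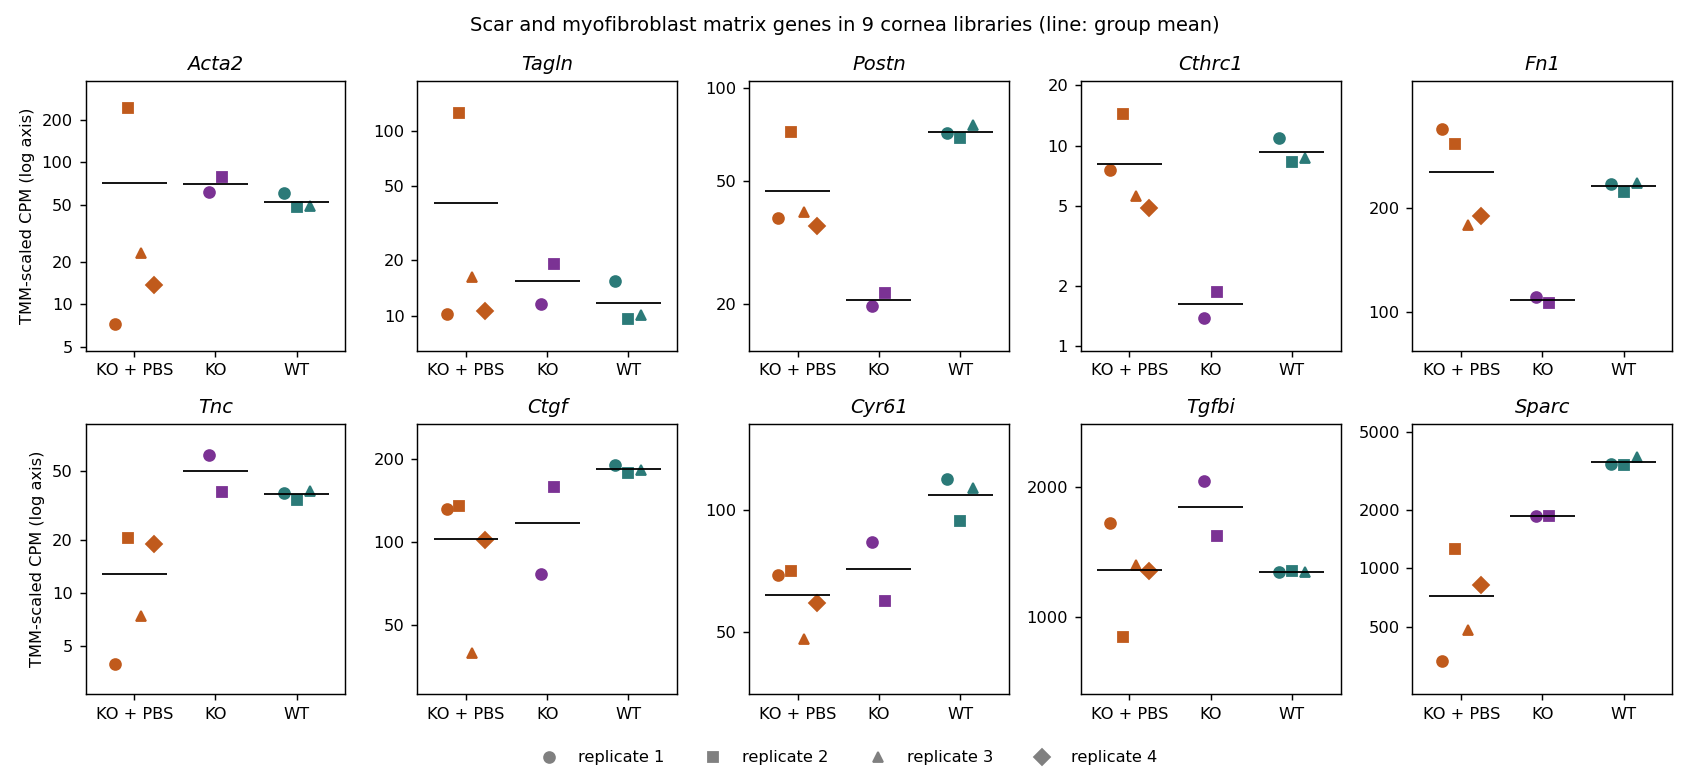
TMM-scaled CPM of the 10 genes (log axes) in each library of KO + PBS (n = 4), KO (n = 2) and WT (n = 3); symbols give the replicate number and lines the group mean. Postn, Cthrc1 and Fn1 are lowest in both KO libraries, Sparc is lowest in KO + PBS and highest in WT, and KO + PBS replicate 2 stands far above the other 3 of its group in Acta2 and Tagln.

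The first comparison asks how untreated KO corneas differ from WT corneas. Of the 10 genes, 2 fell and 0 rose: Cthrc1 had a mean 0.175 times that of WT and Postn 0.286 times. Fn1 at 0.466 times and Sparc at 0.531 times the WT mean also lay below every WT library, whereas Acta2, Tagln, Tnc and Tgfbi had means 1.31 to 1.41 times those of WT and were not called. Counts were tested with edgeR's quasi-likelihood test fitted to all 9 libraries, and a Benjamini-Hochberg adjusted p under 0.05 over 18489 genes was a call. In this fit 0.703% of all genes were called lower and 0.963% higher. The same test on the 5 untreated libraries alone called 4 of the 10 lower (Postn, Cthrc1, Fn1 and Sparc) and 0 higher, where 8.99% of 18006 genes were called lower and 11.5% higher. Without KO replicate 1 that fit called 5 lower and 1 higher (Acta2), and without KO replicate 2 it called 5 lower and 2 higher (Tnc and Tgfbi). DESeq2 on the 9 libraries called Postn, Cthrc1 and Fn1 lower and 0 higher, beside 6.05% of genes lower and 4.35% higher. The groups' libraries did not overlap for 6 genes lower in KO and 2 higher, and this held lower for 26.4% and higher for 24.9% of all genes. The median log2 fold change of the 10 genes was -0.62, against -0.02 over all genes. In whole corneas, fewer cells of a type and less RNA per cell cannot be told apart.

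Acta2, smooth muscle alpha-actin (chromosome 19, 34241090 to 34255590 in GRCm38), builds the actin bundles that define a myofibroblast. It had 7.31, 242, 23.0 and 13.6 CPM in KO + PBS replicates 1 to 4, 61.8 and 78.4 CPM in KO, and 60.6, 48.2 and 49.3 CPM in WT. Each KO library exceeded every WT library, KO replicate 1 by a narrow margin. The KO to WT log2 fold change was 0.41 ± 1.22 (SE; edgeR adjusted p = 0.902) in the fit to 9 libraries and 0.42 ± 0.15 (adjusted p = 0.0987) in the 5 untreated libraries, where it was called higher without KO replicate 1 (0.56, adjusted p = 0.00867).

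Tagln, transgelin, which binds and stabilises actin filaments (chromosome 9, 45929619 to 45936058), had 10.3, 125, 16.3 and 10.7 CPM in KO + PBS replicates 1 to 4, 11.6 and 19.2 CPM in KO, and 15.4, 9.65 and 10.2 CPM in WT. KO and WT overlapped, with a log2 fold change of 0.40 ± 1.01 (edgeR adjusted p = 0.883). The end of Tagln overlaps Pcsk7 on the opposite strand, which had 543 to 1471 counts per library. No strand setting of the counting is given in the labels, so a share of reads could belong to either gene. Tagln also overlaps Gm48529 on the opposite strand, for which no counts were found. Fn1, Tnc and Ctgf overlap the opposite-strand genes Apol7d, 8030451A03Rik and Gm15270, each with 30 counts or fewer per library.

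Postn codes for periostin, a matricellular protein that links collagen fibres and is made in healing stroma (chromosome 3, 54361109 to 54391037). It had 38.0, 72.3, 39.8 and 35.9 CPM in KO + PBS replicates 1 to 4, 19.7 and 21.7 CPM in KO, and 71.9, 69.3 and 76.0 CPM in WT. KO was lowest in both libraries, and KO + PBS lay between KO and WT except replicate 2, which fell within the WT range. Postn fell in KO by a log2 fold change of -1.81 ± 0.31 (edgeR adjusted p = 0.0318; 0.000421 in the 5 untreated libraries).

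Cthrc1, a secreted collagen triple helix repeat protein of injured arteries and activated fibroblasts (chromosome 15, 39076932 to 39087121), was the least abundant in KO. It had 7.54, 14.4, 5.65 and 4.87 CPM in KO + PBS replicates 1 to 4, 1.39 and 1.87 CPM in KO, and 10.9, 8.34 and 8.71 CPM in WT. The KO values rest on 29 and 91 counts. Cthrc1 fell in KO by a log2 fold change of -2.50 ± 0.49 (edgeR adjusted p = 0.0458; 0.00158 in the 5 untreated libraries). In the fit to 9 libraries the calls of Postn and Cthrc1 were lost when any 1 WT or KO library was left out (adjusted p = 0.120 to 0.183). That of Cthrc1 was also lost without KO + PBS replicate 1 (0.0526), and both without KO + PBS replicate 3 (0.0522 for Postn and 0.0653 for Cthrc1). In the 5 untreated libraries both were called whichever 1 library was left out.

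Fn1, fibronectin, the first scaffold of a provisional matrix (chromosome 1, 71585520 to 71653200), had 340, 308, 179 and 190 CPM in KO + PBS replicates 1 to 4, 110 and 106 CPM in KO, and 235, 223 and 237 CPM in WT. Both KO libraries lay below every other library, and KO + PBS spread on either side of WT. The KO to WT log2 fold change was -1.10 ± 0.29 (edgeR adjusted p = 0.0963), and -1.09 ± 0.12 (adjusted p = 0.00220) in the 5 untreated libraries, where the call held without any 1 of them. Its adjusted p in DESeq2 was 0.00371.

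Tnc, tenascin C, an anti-adhesive glycoprotein of wounds (chromosome 4, 63959785 to 64047015), had 3.94, 20.7, 7.35 and 19.2 CPM in KO + PBS replicates 1 to 4, 62.1 and 38.0 CPM in KO, and 37.5, 34.2 and 38.5 CPM in WT. KO replicate 1 was high and KO replicate 2 lay within the WT range. The KO to WT log2 fold change was 0.45 ± 0.59 (edgeR adjusted p = 0.748), and -0.03 without KO replicate 1. In the untreated libraries without KO replicate 2 Tnc was called higher (0.76, adjusted p = 0.000592), and it was not called without KO replicate 1 (0.04, 0.849). In the fit to 9 libraries Fn1 and Tnc had KO to WT fold changes of opposite sign, but neither was called there. The sign for Tnc depended on KO replicate 1.

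Ctgf and Cyr61 code for the CCN proteins CCN2 and CCN1, secreted modulators of adhesion and growth factor signalling that YAP and TEAD induce within hours. Ctgf (chromosome 10, 24595442 to 24598683) had 132, 136, 39.5 and 102 CPM in KO + PBS replicates 1 to 4, 76.5 and 159 CPM in KO, and 191, 179 and 183 CPM in WT. Cyr61 (chromosome 3, 145646976 to 145649981) had 69.0, 70.8, 48.0 and 59.1 CPM in KO + PBS replicates 1 to 4, 83.3 and 59.6 CPM in KO, and 119, 93.8 and 113 CPM in WT. Every KO and KO + PBS library lay below every WT library for both genes. The KO libraries ranked in opposite order in the pair, with replicate 2 higher in Ctgf and replicate 1 higher in Cyr61. The KO to WT log2 fold change was -0.64 ± 0.49 for Ctgf (edgeR adjusted p = 0.540) and -0.60 ± 0.23 for Cyr61 (adjusted p = 0.208), and neither was called in the 5 untreated libraries (0.176 for Ctgf and 0.0585 for Cyr61). The fold change of Ctgf depended on which KO library was kept, at -1.36 without KO replicate 2 and -0.29 without KO replicate 1. In the untreated libraries alone Ctgf was called lower without KO replicate 2 (-1.27, edgeR adjusted p = 2.00e-05) and Cyr61 without KO replicate 1 (-0.88, adjusted p = 0.00104).

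Tgfbi codes for a TGF-beta-induced adhesion protein whose mutations cause corneal dystrophies in humans (chromosome 13, 56609523 to 56639562). It had 1650, 896, 1320 and 1280 CPM in KO + PBS replicates 1 to 4, 2070 and 1540 CPM in KO, and 1270, 1280 and 1270 CPM in WT. WT varied least, and both KO libraries lay above it. The KO to WT log2 fold change was 0.50 ± 0.26 (edgeR adjusted p = 0.347; 0.0683 in the 5 untreated libraries). In those libraries it was called higher without KO replicate 2 (0.70, adjusted p = 0.00179) and not without KO replicate 1 (0.25, 0.182).

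Sparc, which guides collagen assembly (chromosome 11, 55394500 to 55423183), ranked 58 to 72 among 21111 protein-coding genes by CPM per kilobase in WT and 127 and 152 in KO. It had 335, 1250, 486 and 823 CPM in KO + PBS replicates 1 to 4, 1860 and 1860 CPM in KO, and 3420, 3360 and 3720 CPM in WT. The groups did not overlap. The KO to WT log2 fold change was -0.91 ± 0.48 (edgeR adjusted p = 0.354), and -0.90 ± 0.14 in the 5 untreated libraries (adjusted p = 0.00729), where the call held without any 1 of them.

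**Figure D2:**
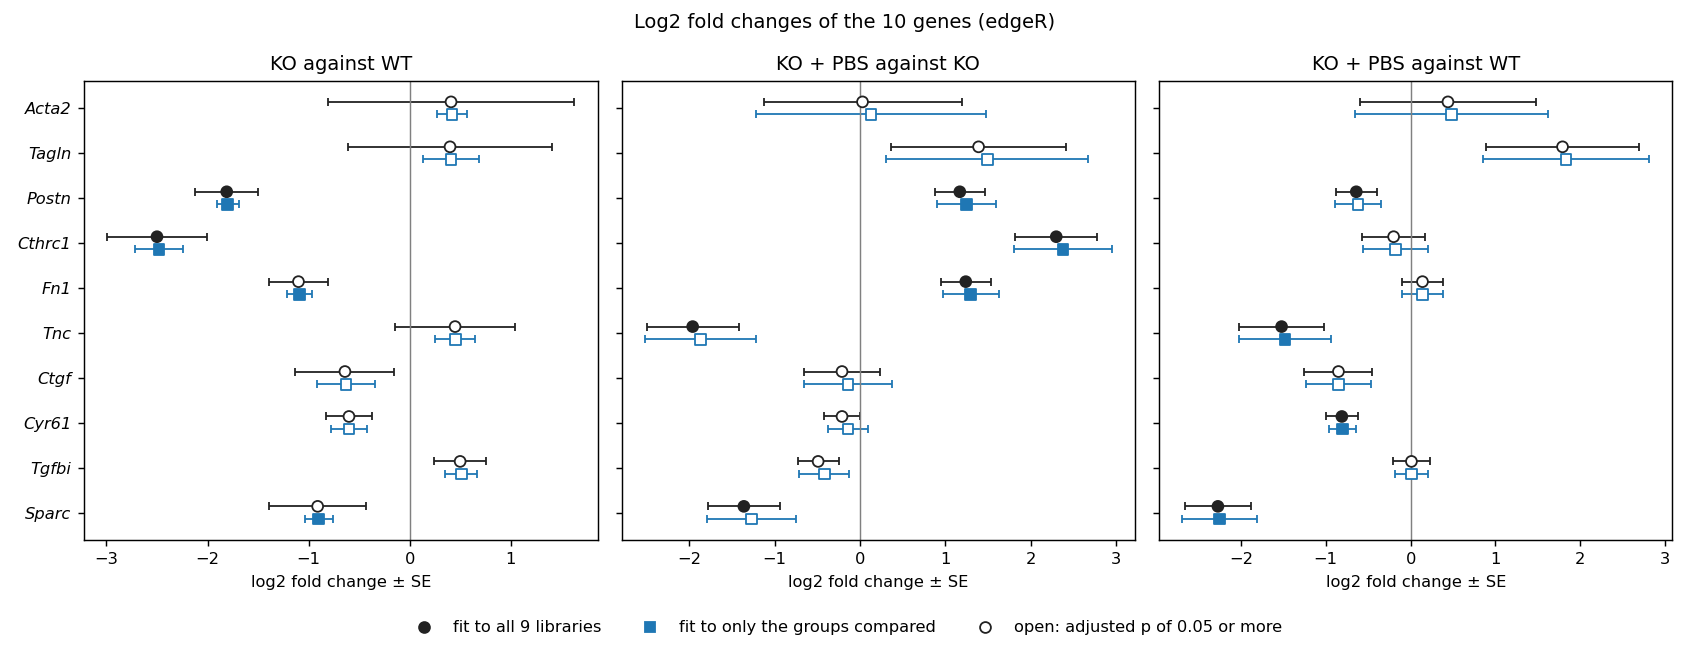
Log2 fold changes (x axis, ± SE) of the 10 genes in the 3 comparisons, from edgeR fits to all 9 libraries (circles) and to only the groups compared (squares); filled symbols have an adjusted p under 0.05. Postn and Cthrc1 are filled in both fits of KO against WT and of KO + PBS against KO, and the error bars of Acta2 and Tagln are the widest wherever KO + PBS libraries enter the fit.

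Genes of the same pathways were read from lists chosen with earlier results of these data known. Over all genes 0.963% were called higher and 0.703% lower in the fit to 9 libraries. In the 5 untreated libraries 11.5% were called higher and 8.99% lower, so a few calls in a list are what many lists would give. TGF-beta ligands and their activators gave 0 calls among 13 tested genes in the fit to 9 libraries, and 1 higher and 3 lower in the 5 untreated libraries. Tgfb1 itself had a KO to WT log2 fold change of -0.02 ± 0.14 (edgeR adjusted p = 0.970). Thbs1, thrombospondin 1, which activates latent TGF-beta, had 12.8 ± 0.574 CPM in KO (SD, n = 2) and 37.6 ± 6.70 CPM in WT (SD, n = 3) and was called lower in the 5 untreated libraries (adjusted p = 0.00289). Ltbp4, a latency protein, was lower in the same fit (89.8 ± 17.9 CPM in KO, 137 ± 8.65 CPM in WT; adjusted p = 0.0343), and Itgb6, the chain of an activating epithelial integrin, was higher (19.3 ± 4.58 CPM in KO, 11.0 ± 1.70 CPM in WT; adjusted p = 0.0277).

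TGF-beta receptors and SMAD genes gave 0 calls of 13 in the 9 libraries, and 2 higher and 2 lower in the 5 untreated ones. Over all genes 11.5% were higher and 8.99% lower in those 5. Bambi, a decoy receptor, and Smad4 were called higher, and Smad2 and the receptor gene Tgfbr2 lower. Of 12 TGF-beta targets outside the matrix, 0 were called in the 9 libraries, and 4 higher and 2 lower in the 5 untreated ones. Twist1, a mesenchymal transcription factor, had 6.15 ± 0.927 CPM in KO and 29.6 ± 2.34 CPM in WT (edgeR adjusted p = 0.000500 in the 5 untreated libraries). Skil, a SMAD corepressor that TGF-beta induces, moved the other way, with 11.3 ± 1.56 CPM in KO and 6.62 ± 0.783 CPM in WT (adjusted p = 0.0243).

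Of 14 genes for YAP, TAZ, TEAD factors and Hippo regulators, 0 were called in the 9 libraries, and 4 higher and 0 lower in the 5 untreated ones. The shares over all genes in those 5 were 11.5% higher and 8.99% lower. Wwtr1, which codes for TAZ, had 67.0 ± 5.46 CPM in KO and 44.4 ± 0.690 CPM in WT (edgeR adjusted p = 0.00822), and Tead4 had 4.72 ± 0.992 CPM in KO and 1.68 ± 0.0854 CPM in WT (adjusted p = 0.00787). Of 14 YAP targets other than Ctgf and Cyr61, only F3, tissue factor, was called in the 5 untreated libraries, lower at 54.1 ± 11.3 CPM in KO against 108 ± 16.1 CPM in WT (adjusted p = 0.0131). Of 10 SRF and MRTF genes, 0 were called in the 9 libraries, and in the 5 untreated ones 2 were higher and 0 lower: Junb, at 369 ± 20.4 CPM in KO and 188 ± 18.1 CPM in WT (adjusted p = 0.00456), and the MRTF-A gene Mkl1 (adjusted p = 0.0357).

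Of 17 other contractile and cytoskeletal genes, 0 were called in the 9 libraries, and 2 higher and 3 lower in the 5 untreated ones. All genes there had 11.5% higher and 8.99% lower. Pdlim7, an actin-associated scaffold, and Tpm2, a tropomyosin, were higher (41.9 ± 3.51 and 450 ± 14.8 CPM in KO, 22.3 ± 0.182 and 325 ± 20.7 CPM in WT), and Cald1, caldesmon, was lower (6.93 ± 1.18 CPM in KO, 20.3 ± 1.86 CPM in WT; edgeR adjusted p = 0.00230). None of 4 other actin genes tested in the 5 untreated libraries was called, nor any of 5 in the 9 libraries. Tagln2, the transgelin of non-muscle cells, was called higher in the 5 untreated libraries, with 352 ± 73.0 CPM in KO and 222 ± 25.5 CPM in WT (adjusted p = 0.0340).

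Relatives of the matrix genes were read against the 8.99% of all genes called lower and 11.5% called higher in the 5 untreated libraries. The 1 other fasciclin-domain gene tested, a relative of Postn and Tgfbi, was not called (log2 fold change 0.01). Of 6 other SPARC family genes, 5 were called lower and 0 higher there, among them Sparcl1 with 12.0 ± 1.71 CPM in KO and 67.8 ± 3.10 CPM in WT (edgeR adjusted p = 0.000259). Of 12 collagen genes of scar tissue, 11 were called lower and 0 higher, with a median log2 fold change of -2.04, and in the 9 libraries 0 were called (median -2.05). Col12a1, which coats collagen fibrils, had 59.2 ± 12.3 CPM in KO and 299 ± 32.8 CPM in WT (adjusted p = 0.000863 in the 5 libraries, 0.0528 in the 9). Of 15 collagen modification genes, 7 were lower and 1 higher, with Plod1, a lysyl hydroxylase, at 41.6 ± 3.35 CPM in KO and 226 ± 13.1 CPM in WT (adjusted p = 0.000276). Of 3 other CCN genes, Nov and Wisp2 were lower in the 5 libraries (adjusted p = 0.0109 and 0.0274).

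Of 17 other matricellular genes, 3 were higher and 7 lower in the 5 untreated libraries, and 1 rose in the 9 libraries. That gene was Ecm1, a secreted glycoprotein of skin and other barriers, with 554 ± 139 CPM in KO and 170 ± 23.7 CPM in WT, a log2 fold change of 1.70 ± 0.21 (edgeR adjusted p = 0.0214). Fbln5, an elastic fibre protein, was lower in the 5 libraries (18.3 ± 2.07 CPM in KO, 97.2 ± 12.3 CPM in WT; adjusted p = 0.000438). Of 9 receptors for fibronectin, tenascin or periostin, 2 were higher and 1 lower there. Sdc4, a syndecan, was one of the higher genes, with 758 ± 128 CPM in KO and 480 ± 29.0 CPM in WT (adjusted p = 0.0242), and the integrin gene Itga5 was the other (adjusted p = 0.0325).

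**Figure D3:**
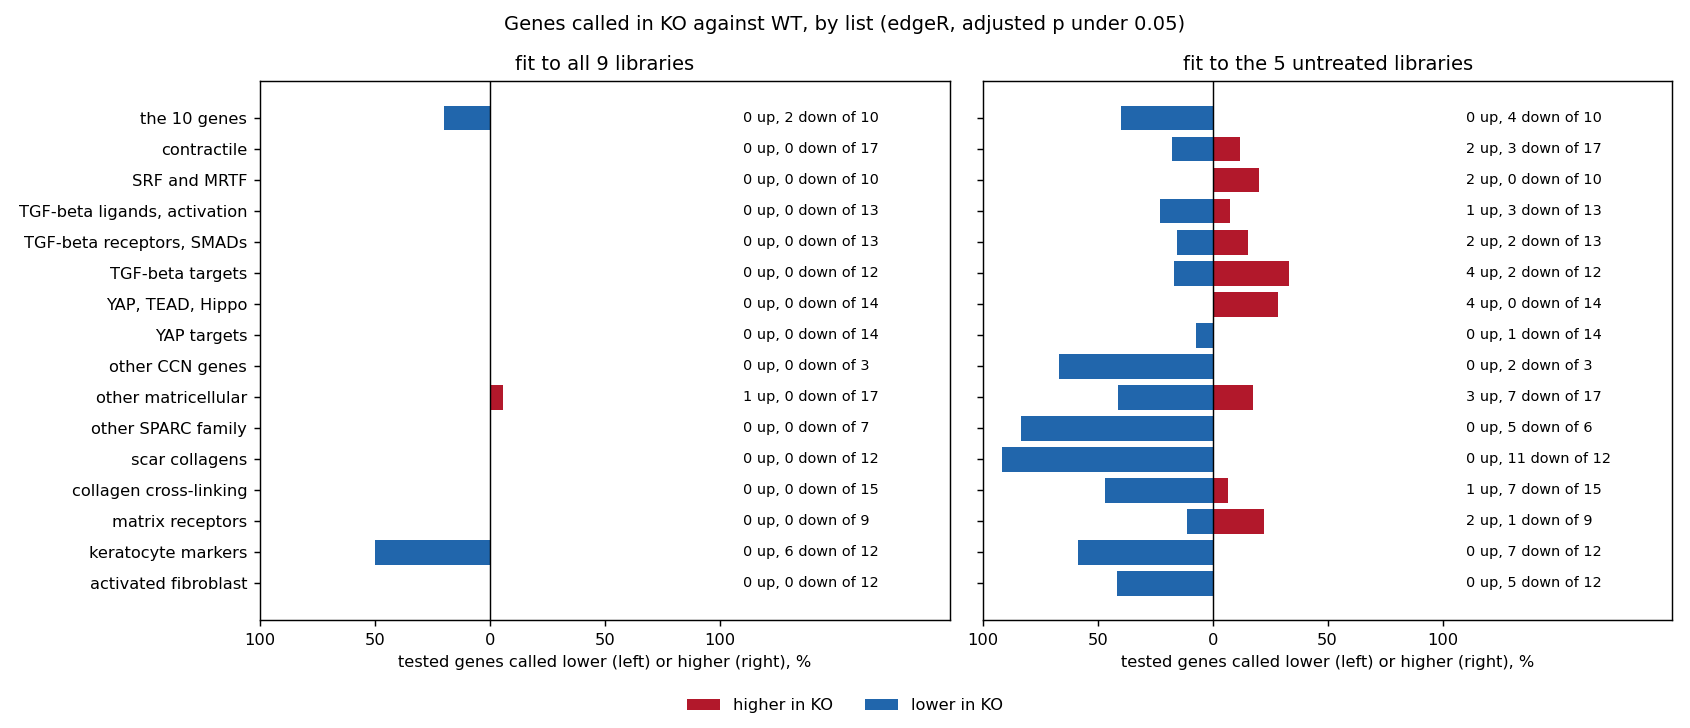
Share of tested genes called lower (left of 0) or higher (right of 0) in KO against WT for each list (x axis, %), in the edgeR fit to all 9 libraries and in the fit to the 5 untreated libraries, with counts beside the bars. Scar collagens (11 of 12 lower) and other SPARC family genes (5 of 6 lower) have the longest bars in the 5 untreated libraries, and keratocyte markers (6 of 12 lower) in the 9.

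Cell type markers did not all move the same way in KO against WT. In the 9 libraries the median log2 fold change was -2.55 for keratocyte and 2.23 for leukocyte markers. It was 0.55 for markers of smooth muscle and pericytes, 0.37 for vessel endothelium and 0.08 for corneal epithelium. Over all genes 0.703% were called lower and 0.963% higher there, and 8.99% lower and 11.5% higher in the 5 untreated libraries. Of 12 keratocyte markers, 6 fell and 0 rose in the 9 libraries, with Kera at 4.93%, Dcn at 6.65% and Lum at 7.83% of the WT mean in KO. Of the genes described here, Cthrc1 had 17.5%, Postn 28.6%, Fn1 46.6% and Sparc 53.1% of the WT mean, beside 32.7% for Col1a1 and 66.1% for the mesenchymal filament gene Vim. Of 10 corneal endothelium markers, 2 fell and 0 rose in the 9 libraries and 8 were called lower and 0 higher in the 5 untreated ones, with a median log2 fold change of -2.21 in the 5 libraries. Among them Slc4a11, a transporter of the corneal endothelium, had 19.9 ± 0.625 CPM in KO and 138 ± 2.65 CPM in WT (edgeR adjusted p = 0.000117 in the 5 libraries, 0.0582 in the 9). Markers of activated fibroblasts gave 0 calls of 12 in the 9 libraries and 5 lower in the 5 untreated ones. Their summed CPM, not TMM-scaled like all sums over lists, was 149 and 113 in KO and 181 to 185 in WT. Leukocyte markers summed to 340 and 148 CPM in KO and 98.7 to 116 CPM in WT, and of 10 tested in the 5 untreated libraries 6 were called higher and 1 lower. The part of these cell types in the results was not tested.

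The second comparison asks how PBS-treated KO corneas differ from untreated ones, across the change in kind of library. Cthrc1, Fn1 and Postn rose, with means 4.97, 2.36 and 2.25 times those of KO, and Tnc and Sparc fell, with means 0.256 and 0.389 times those of KO. These counts, 3 higher and 2 lower of 10, stood beside 23.6% higher and 29.7% lower over all genes, so that the share of the members called was close to the background. For these 5 genes the libraries of the groups did not overlap, which held higher for 26.9% and lower for 34.0% of all genes. The log2 fold change was 2.30 ± 0.48 for Cthrc1 (edgeR adjusted p = 0.00320), 1.24 ± 0.29 for Fn1 (0.00560) and 1.17 ± 0.29 for Postn (0.00824). It was -1.96 ± 0.54 for Tnc (adjusted p = 0.0138) and -1.36 ± 0.42 for Sparc (0.0230). Fitted to these 6 libraries alone, where 20.7% of genes were called higher and 22.8% lower, the calls of Cthrc1 (0.0146), Fn1 (0.0174) and Postn (0.0270) held and those of Tnc (0.0543) and Sparc (0.0881) were lost. DESeq2 called Cthrc1, Fn1 and Postn higher and Tnc and Sparc lower, beside 27.0% higher and 31.8% lower over all genes. Leaving out KO replicate 1 ended the calls of Postn (adjusted p = 0.0537), Tnc (0.140) and Sparc (0.119). The call of Sparc also ended without KO replicate 2 (0.131), WT replicate 2 (0.0588) or KO + PBS replicate 3 (0.0531).

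The third comparison sets PBS-treated KO corneas beside WT, and it shares its libraries with the other two. Sparc, Tnc, Cyr61 and Postn fell, with means 0.207, 0.349, 0.568 and 0.642 times those of WT, and none rose. Over all genes 30.0% were called lower and 27.1% higher. The log2 fold change was -2.27 ± 0.39 for Sparc (edgeR adjusted p = 0.00101) and -0.81 ± 0.19 for Cyr61 (0.00487), and both calls held whichever 1 library was left out. It was -1.52 ± 0.50 for Tnc (adjusted p = 0.0269) and -0.64 ± 0.24 for Postn (0.0461). The call of Tnc ended without any 1 WT library (0.0627 to 0.0727) or KO + PBS replicate 3 (0.0644), and that of Postn ended in the fit to these 7 libraries alone (0.0815; 29.4% of genes lower and 27.8% higher there) and without every 1 library except KO + PBS replicate 2. All 4 KO + PBS libraries lay below WT for Tnc, Ctgf, Cyr61 and Sparc, and over all genes 33.5% were lower and 26.7% higher without overlap. DESeq2 called 5 of the 10 lower, Ctgf too (adjusted p = 0.0458), beside 33.2% lower and 28.7% higher over all genes. Means of Cthrc1 (0.872 times), Tgfbi (1.01 times) and Fn1 (1.10 times those of WT) were not called (adjusted p = 0.667, 0.965 and 0.647).

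The pathway lists in KO + PBS against KO were read beside the 23.6% of all genes called higher and the 29.7% called lower. TGF-beta ligands and activators gave 4 higher and 2 lower of 13, TGF-beta targets 2 higher and 4 lower of 12 (median log2 fold change -0.39), and contractile genes 4 higher and 1 lower of 17. TGF-beta receptors and SMAD genes gave 8 higher and 0 lower of 13, and YAP, TEAD and Hippo genes 8 higher and 0 lower of 14. There were 5 higher and 0 lower of 14 YAP targets and 4 higher and 0 lower of 10 SRF and MRTF genes. The median was -0.02 over all genes. Srf had 45.4 ± 3.03 CPM in KO + PBS (SD, n = 4) and 17.5 ± 2.23 CPM in KO (edgeR adjusted p = 6.01e-05). Thbs1 rose to 134 ± 84.7 CPM in KO + PBS, against 12.8 ± 0.574 CPM in KO, a log2 fold change of 3.39 (adjusted p = 0.000669). Of 12 scar collagens 2 rose and 0 fell (median log2 fold change -0.10), and Col12a1 was one of the 2, with 332 ± 180 CPM in KO + PBS and 59.2 ± 12.3 CPM in KO (adjusted p = 0.00213), and against WT 8 fell and 1 rose. Of 12 keratocyte markers 6 rose and 3 fell against KO. Ecm1 fell to 157 ± 13.1 CPM in KO + PBS, against 554 ± 139 CPM in KO (adjusted p = 5.13e-05).

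The KO + PBS libraries differed among themselves. Replicate 2 had 10.5 times the Acta2 and 7.67 times the Tagln of the next highest KO + PBS library. Without it Acta2 averaged 14.6 ± 7.88 CPM and Tagln 12.4 ± 3.36 CPM in KO + PBS (SD, n = 3). Over all 4 libraries neither gene was called against KO (edgeR adjusted p = 0.987 for Acta2 and 0.282 for Tagln) or against WT (0.737 and 0.116). Without replicate 2 Acta2 was called lower than in KO, with a log2 fold change of -2.25 (adjusted p = 0.00112; -2.18 in the groups compared alone, 0.00983), and lower than in WT (-1.84, 0.00200; -1.90, 0.00349). Tagln was not called against KO without it (-0.31, adjusted p = 0.414), while Cthrc1 was then called lower than in WT (-0.62, 0.0396). Sparc and Tnc were higher in replicates 2 and 4 than in replicates 1 and 3, as were Col1a1 (426, 2390, 640 and 1520 CPM in replicates 1 to 4), Kera (40.6, 185, 58.4 and 158 CPM) and Vim (33.4, 210, 47.1 and 174 CPM).

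Some smooth muscle and iris markers, but not all, peaked in the libraries with the most Acta2 and Tagln. Des, a muscle gene, was higher in KO + PBS replicate 3 than in replicate 2. Replicate 3 also had the highest sum of skeletal muscle markers in its group (240 CPM, not TMM-scaled). Whether Des followed these was not tested. The summed markers of smooth muscle and pericytes had 440 CPM in KO + PBS replicate 1, where Acta2 was lowest. Myh11 and the pericyte gene Rgs5, both on that list, were also lowest of the group there, so other markers made up most of the sum. The sums of this list were 169 and 158 CPM in KO replicates 1 and 2. They are not TMM-scaled, and the TMM factors of 0.823 and 0.709 in these libraries would turn their order round. The smooth muscle myosin gene Myh11 had 4.62, 209, 15.5 and 5.36 CPM in KO + PBS replicates 1 to 4, 15.0 and 20.5 CPM in KO, and 17.1, 10.8 and 8.52 CPM in WT. Dct, a pigment enzyme of iris and ciliary body, had 60.4, 1370, 180 and 79.2 CPM in KO + PBS replicates 1 to 4, 121 and 263 CPM in KO, and 269, 91.5 and 57.4 CPM in WT. In each group the library with the most Acta2 and Tagln also had the highest sum of the 10 iris and ciliary body markers. That sum includes Myh11 and Des and is not TMM-scaled. It was 155, 5380, 572 and 232 CPM in KO + PBS replicates 1 to 4, 235 and 480 CPM in KO, and 526, 187 and 125 CPM in WT. None of the 10 markers was at 0 in any library. The list gave 0 calls in each of the 3 comparisons in the 9 libraries.

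Rgs5, a pericyte gene, had 5.15, 42.5, 17.9 and 13.7 CPM in KO + PBS replicates 1 to 4, 46.4 and 47.6 CPM in KO, and 36.3, 27.8 and 22.8 CPM in WT. Like Acta2 it was higher in both KO libraries than in any WT library. Sums over lists are not TMM-scaled. The TMM factors were 1.15 to 1.54 in KO + PBS and 0.709 to 0.856 in KO and WT. Scaling would therefore lower the KO + PBS sums and raise those of KO and WT. The 10 mural markers, of smooth muscle and pericytes, summed to 247 to 606 CPM in KO + PBS. They summed to 169 and 158 CPM in KO and 164 to 166 CPM in WT, with Higd1b at 0 in KO + PBS replicate 1. Gene by gene, 0 were called higher and 2 lower of 10 against KO (median log2 fold change -0.66) and 0 higher and 1 lower against WT (median -0.48). Cspg4, a proteoglycan of pericytes, fell to 3.70 ± 1.04 CPM in KO + PBS, against 10.7 ± 3.47 CPM in KO (edgeR adjusted p = 0.00204). Corneal endothelium markers summed to 1710 to 7530 CPM in KO + PBS, 598 and 738 CPM in KO, and 934 to 1320 CPM in WT, and lens markers to 408 to 7870 CPM in KO + PBS, 107 and 95.4 CPM in KO, and 105 to 293 CPM in WT. Against KO, 9 of 10 corneal endothelium markers and 7 of 8 lens markers tested rose and 0 fell. The part of any of these tissues in the results was not tested.

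**Figure D4:**
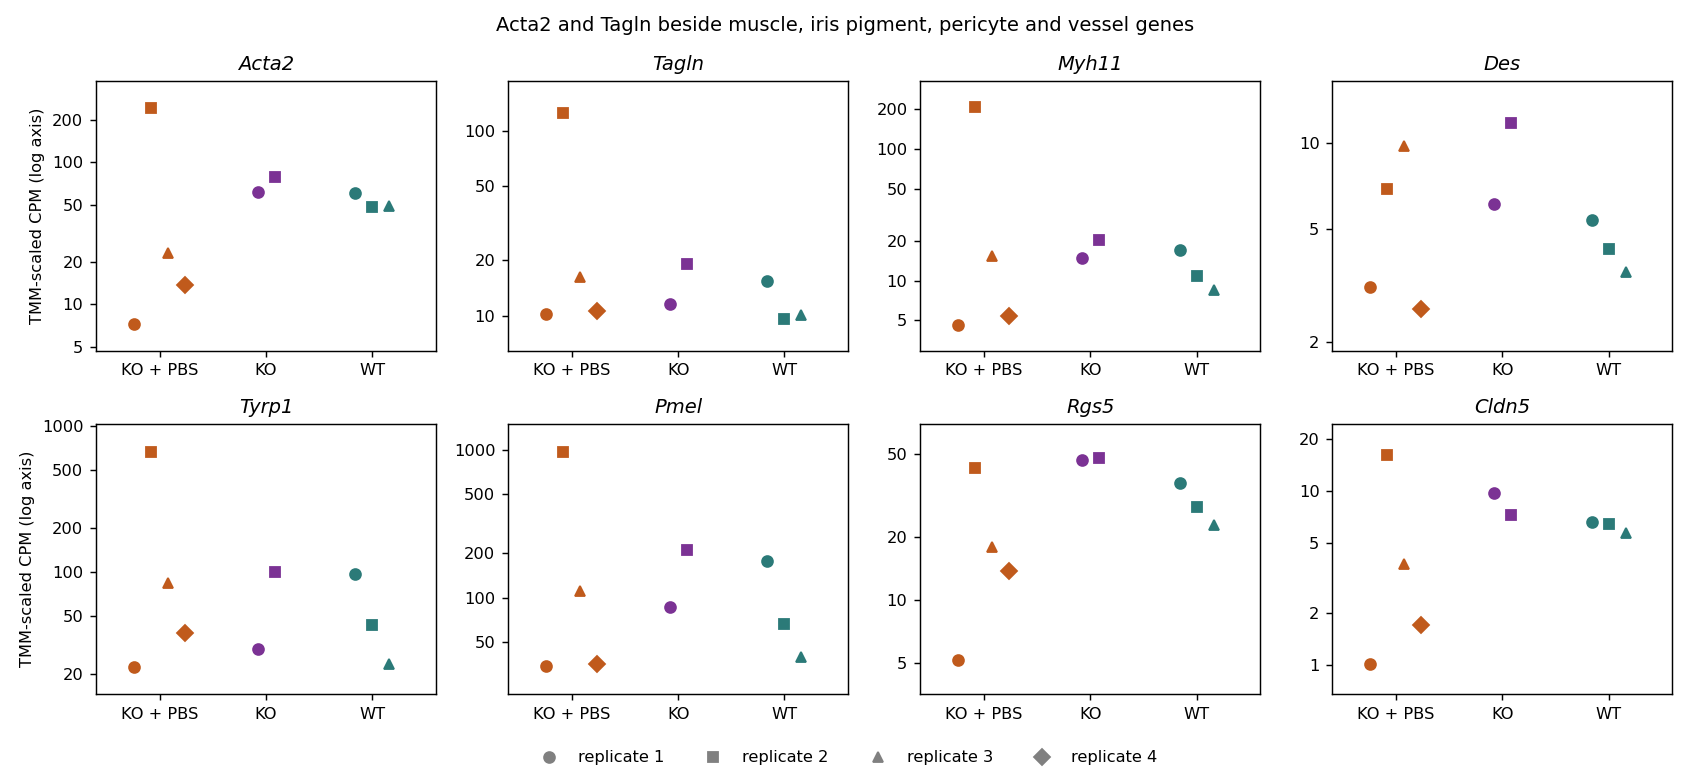
TMM-scaled CPM (log axes) of Acta2 and Tagln beside the muscle genes Myh11 and Des, the pigment genes Tyrp1 and Pmel, the pericyte gene Rgs5 and the vessel gene Cldn5, in each library of KO + PBS (n = 4), KO (n = 2) and WT (n = 3); symbols give the replicate number. KO + PBS replicate 2 is the highest of its group in each panel except Des, where replicate 3 is higher.

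The nearest patterns were sought among 11881 protein-coding genes by the root mean square difference of centred log2 values over the 9 libraries, as a description. Acta2 was nearest to Smtn, a smooth muscle gene (0.40), Bmp4 (0.42) and Cldn5 (0.45), and Tagln to Islr2 (0.19), Pvrl3 (0.19) and Eya1 (0.23). Postn was nearest to Ehd3 (0.22), Dpysl3 (0.22) and Tceal5 (0.26), and Cthrc1 to Adamtsl1 (0.19), Bex4 (0.19) and Jam2 (0.22). Each of this pair was the other's nearest member, at 0.37. Fn1 was nearest to Ntn1 (0.18), Gin1 (0.20) and Aox1 (0.21), and Tnc to Ecscr (0.29), Lrg1 (0.31) and Kcns1 (0.32). Ctgf was nearest to Pyroxd2 (0.35), Slc17a9 (0.38) and Lpar1 (0.38), and Cyr61 to Gpr161 (0.15), Btg3 (0.15) and Znhit3 (0.17), with 0.50 between Ctgf and Cyr61. Tgfbi had Stambp (0.10) and Snx1 (0.10) among its 3 nearest, and Sparc was nearest to Il11ra1 (0.12), Adcyap1r1 (0.17) and Prrx2 (0.19).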

How the data were processed

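Counts from 9 whole-cornea libraries were analysed. The tools fastp, STAR and featureCounts and the build mm10 are listed per the submitters' processing notes; versions, annotation and strand are not given in the sources used. The authors deposited whole-number read counts per gene, not normalized. Of 34165 names, 23 read as dates and were removed (0.0318 to 0.140% of counts). GENCODE M21 (GRCm38) gave positions and exon lengths for 31440 names. Counts were tested with edgeR 4.0.16 (R 4.3.3): filterByExpr, TMM scaling and 1 robust quasi-likelihood model of all 9 libraries, with the fit to only the groups compared beside it. P-values were Benjamini-Hochberg adjusted over all genes tested, and rose and fell are kept for adjusted p under 0.05 in the fit to 9 libraries. SE was computed as |log2 fold change| over the square root of F. Sums of CPM over lists are not TMM-scaled. Whether a replicate is 1 mouse or pooled mice is not in the labels, and p-values then reflect only how much these samples vary. Replicate libraries differed beyond sampling noise (chi-square 18.9 to 309 per degree of freedom).

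The members and gene lists were chosen with earlier results of these data known. Named genes are the 10 members and, per list, up to 4 with the smallest adjusted p in KO against WT and an average of 1 CPM or more. Tgfb1, Col1a1, Lum, Vim, Cldn5, Tyrp1, Higd1b, Dct and Krt12 were added after their values were seen. Nearest patterns used log2(CPM + 0.5) less each gene's mean, among genes averaging 2 CPM or more. A further one of the nearest genes of Tgfbi is not reported here. Alternatives were RLE and upper-quartile scaling, other filters, DESeq2 1.42.0, non-robust dispersion, protein-coding genes only, a replicate block and leaving out each library; the fit to the groups compared without KO + PBS replicate 2 was added after seeing the data. The edgeR fit of KO against WT was tested on simulated counts, which held no difference in kind of library.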

Additional observations from a re-analysis of the deposited data

Results flagged for a closer look

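In the 39 sets of 4 KO + PBS libraries examined for a library far from the rest (the 10 genes and the sums of 29 lists), 9 held one. The rule would flag about 1 in 20 by chance only if the sets were independent. These are not, since lists share genes and most flags fell on the same library. The sums are also not TMM-scaled, and replicate 2 had the largest TMM factor (1.54, against 1.15 to 1.33 in the others). Which sums would be flagged after scaling was not tested. KO + PBS replicate 2 had 242 CPM of Acta2 (7.31 to 23.0 in the other 3), 125 CPM of Tagln (10.3 to 16.3) and 72.3 CPM of Postn (35.9 to 39.8). The same library had a summed level of 2800 CPM for the contractile list (1050 to 1280 in the other 3), 1450 CPM for TGF-beta ligands and activators (615 to 636), 1000 CPM for other SPARC family genes (197 to 311), 5380 CPM for iris and ciliary body markers (155 to 572) and 7530 CPM for corneal endothelium markers (1710 to 2400). KO + PBS replicate 3 had 240 CPM of skeletal muscle markers (36.5 to 66.0 in the other 3). Mitochondrial genes held 6.12% of the counts of KO + PBS replicate 2 and 0.796 to 0.923% of those of the other 3. The cause was not tested.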

How the results depend on the processing

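With 2 KO libraries, KO against WT depended on how the spread was estimated. Against 308 genes and 2 members called, DESeq2 called 1870 genes, the 5 untreated libraries 3681 genes and 4 members, and the replicate block 5 genes and 0 members. Leaving out each library gave 0 to 2257 genes (0 without any 1 WT library, 47 and 50 without KO replicates 1 and 2, 145 and 2257 without KO + PBS replicates 3 and 2) and 0 to 3 members, and within the 5 untreated libraries 1305 to 6290 genes (1596, 1305 and 1370 without WT replicates 1 to 3, 6290 and 5392 without KO replicates 1 and 2) and 4 to 7 members (0 higher without any 1 WT library, 1 and 2 higher without KO replicates 1 and 2). Members called in KO + PBS against KO were 5, with 3 in the groups compared alone and 2 to 6 when a library was left out. Against WT they were 4, with 2 under upper-quartile scaling, 2 to 6 when a library was left out, and 7 in the groups compared without KO + PBS replicate 2. Upper-quartile scaling moved the median log2 fold change of all genes by 0.19 in KO + PBS against KO and 0.12 against WT. It ended the calls of Sparc against KO (adjusted p = 0.0655) and of Postn (0.132) and Tnc (0.0538) against WT; the last 2 were also lost with another filter (0.0518 for Postn at 1 CPM in 3 libraries, 0.0504 for Tnc without a filter).

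Signs turned round only for fold changes that were not called over all libraries. In KO against WT, Acta2 was -0.03 and Tagln -0.16 under the block. Leaving out 1 library gave -0.03 (without KO replicate 1) to 0.67 for Tnc and -0.10 (without KO replicate 2; -0.01 in the untreated libraries alone) to 0.64 for Tagln. In KO + PBS against KO, Acta2 was -0.01 with RLE, -0.02 with DESeq2, -0.11 over protein-coding genes, -0.22 under the block and -0.04 without KO replicate 1. Leaving out 1 library gave -0.34 to 0.13 (without KO replicate 1) for Cyr61, and -0.56 to 0.50 (without KO replicate 2; 0.07 without KO + PBS replicate 3) for Ctgf. It gave -2.25 to 0.41 for Acta2 and -0.31 to 1.91 for Tagln, both lowest without KO + PBS replicate 2 (-2.18 and -0.25 in the groups compared). In KO + PBS against WT, Tgfbi was -0.04 with RLE, -0.04 with DESeq2, -0.14 over protein-coding genes, -0.03 under the block and -0.13 without KO + PBS replicate 1. Fn1 was -0.02 over protein-coding genes, -0.03 (without KO + PBS replicate 1) to 0.28 when 1 library was left out, and -0.03 in the groups compared without replicate 2. Acta2 was -0.25 under the block and -1.84 (without KO + PBS replicate 2; -1.90 in the groups compared) to 0.82 when 1 library was left out. The cause was not tested. DESeq2 gave no p for Acta2 and Tagln.

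Same-numbered libraries did not deviate together (correlations of -0.36 to 0.16 across genes), so the numbers were not taken as pairs. The replicate block ended the KO against WT calls of Postn and Cthrc1 (adjusted p = 0.0974 for each) and the KO + PBS against WT call of Postn (0.0932) and left 5 members called in KO + PBS against KO and 3 against WT. Cthrc1 in KO, at 29 and 91 counts, is the member whose level depth limits most.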
